A study of Mus musculus with 24 samples.

Results

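The comparison described here set heterozygous loss of Kmt2d directly against heterozygous loss of Crebbp in germinal centre (GC) B cells. Its members were the 8 libraries of these genotypes, 4 from K mice and 4 from C mice, out of 24 samples in the series and 17 with peak counts. Splenic GC B cells were sorted 10 days after immunization with sheep red blood cells (SRBC), and ATAC-seq was run on 60000 cells per mouse, with a transposase that cuts and tags open chromatin. All groups carried the Cg1Cre+/- allele. K mice also carried Kmt2d fl/+, C mice carried Crebbp fl/+, CK mice carried both floxed alleles, and WT mice carried neither. The 4 WT and 5 CK mice served to place the K and C values and to estimate the spread between mice. The study describes the animals as C57BL/6J mice of 8 weeks.

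CREBBP acetylates histones, including H3K27 at active enhancers, and KMT2D places H3K4me1, the methyl mark of enhancers. Both genes are recurrently mutated in lymphomas that arise from GC B cells. GC B cells cycle between a dark zone, where they divide and mutate their antibody genes, and a light zone, where they are selected by T cells. Cg1-Cre acts from the IgG1 constant region locus and so recombines in B cells that respond to antigen. Each mutant kept 1 intact allele, and the share of sorted cells that had recombined was not measured in these data.

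The K libraries held 17918843 to 21612475 fragments in peaks and the C libraries 18785986 to 21857738, over 65483 consensus peaks. Pearson's correlation of log2 CPM (fragment counts scaled to a common library size) over peaks was 0.989 to 0.994 within a genotype and 0.984 to 0.991 between K and C. Peaks at the start sites of 12 GC B-cell marker genes summed to 947 to 974 CPM in K and 898 to 982 in C. Start-site peaks of 5 of 14 T-cell markers summed to 177 to 209 CPM in K and 176 to 203 in C. The sums for 6 of 13 myeloid and dendritic markers were 39.4 to 52.4 and 37.9 to 48.5. No peak near a gene of any of these marker lists was called, and the part of other cell types in the results was not tested further. The study describes the mice as female, yet 11 peaks over Y-linked genes gave 75.4 to 84.3 CPM in K mice 1, 3 and 4 and C mice 1 and 2, and at most 0.0566 CPM in K mouse 2 and C mice 3 and 4. The number of called peaks and their promoter shares are therefore also given with this signal as a covariate, and the other counts below are without it.

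Crebbp and Kmt2d themselves gave no clear sign of the deletions. Over Crebbp (GRCm38, chromosome 16, bases 4081328 to 4213997) the 5 peaks gave a sum of 52.4, 52.4, 46.0 and 44.9 CPM in K and of 46.4, 46.2, 42.2 and 41.3 in C. Over Kmt2d (chromosome 15, bases 98831669 to 98871204) the 4 peaks gave 132, 129, 126 and 124 CPM in K and 127, 128, 120 and 123 in C. The sums of the genotypes overlapped at both genes, and 0 of the 9 peaks was called. At the start-site peak of Crebbp every K mouse lay above every C mouse. It measured 46.9, 47.1, 41.4 and 40.8 CPM in K and 40.6, 39.5, 37.7 and 36.4 in C (edgeR adjusted p = 0.0557). As this peak missed the threshold, accessibility here gave no check of the labels.

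The central 300 bases are printed for the 3 peaks in each direction with the lowest adjusted p among the named peaks that lay away from start sites and exons, because these sites part the genotypes most clearly. They are from GRCm38.p6 (RefSeq), forward strand, 5′ to 3′. Capitals mark exact matches to any of 18 short motifs, on either strand. Those found were CAGGTG and CAGCTG, bound by E proteins, TGANTCA, bound by AP-1, TGACGTCA, the cAMP response element, CCAAT, the CCAAT box, and ATGCAAAT, the octamer. Matches could overlap. The first 3 sequences were higher in K and the last 3 lower in K.
Sipa1l3 intron, chr7:29338676-29338975: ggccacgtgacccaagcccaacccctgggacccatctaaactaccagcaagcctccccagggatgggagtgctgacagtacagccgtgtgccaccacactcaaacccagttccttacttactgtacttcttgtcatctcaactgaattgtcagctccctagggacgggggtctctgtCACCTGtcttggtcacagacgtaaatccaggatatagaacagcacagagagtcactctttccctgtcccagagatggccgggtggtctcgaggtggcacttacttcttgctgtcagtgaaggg
Intergenic, chr2:30712060-30712359: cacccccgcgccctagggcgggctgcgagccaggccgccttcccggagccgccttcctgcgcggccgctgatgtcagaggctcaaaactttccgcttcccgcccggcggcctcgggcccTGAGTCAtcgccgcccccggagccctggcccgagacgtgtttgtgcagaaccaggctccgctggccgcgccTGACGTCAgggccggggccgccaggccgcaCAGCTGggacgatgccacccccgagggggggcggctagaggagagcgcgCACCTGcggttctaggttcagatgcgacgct
Intergenic, chr12:16032306-16032605: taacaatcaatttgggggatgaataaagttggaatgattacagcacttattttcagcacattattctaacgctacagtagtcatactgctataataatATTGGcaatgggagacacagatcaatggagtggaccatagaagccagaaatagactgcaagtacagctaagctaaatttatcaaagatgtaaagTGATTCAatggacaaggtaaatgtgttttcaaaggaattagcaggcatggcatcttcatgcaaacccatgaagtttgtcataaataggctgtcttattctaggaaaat
Ablim1 intron, chr19:57112858-57113157: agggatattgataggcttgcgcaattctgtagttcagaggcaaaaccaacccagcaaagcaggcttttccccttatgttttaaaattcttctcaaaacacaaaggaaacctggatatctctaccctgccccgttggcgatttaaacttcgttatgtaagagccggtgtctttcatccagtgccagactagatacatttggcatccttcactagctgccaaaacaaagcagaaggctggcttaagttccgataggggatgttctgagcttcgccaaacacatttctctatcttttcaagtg
Aff3 intron, chr1:38268324-38268623: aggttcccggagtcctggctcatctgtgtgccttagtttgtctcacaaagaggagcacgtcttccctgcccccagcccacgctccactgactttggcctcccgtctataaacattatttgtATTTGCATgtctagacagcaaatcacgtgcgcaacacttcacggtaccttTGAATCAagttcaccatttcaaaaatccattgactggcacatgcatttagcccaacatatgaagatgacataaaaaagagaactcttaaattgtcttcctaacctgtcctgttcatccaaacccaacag
Upstream of Grik3, chr4:125481384-125481683: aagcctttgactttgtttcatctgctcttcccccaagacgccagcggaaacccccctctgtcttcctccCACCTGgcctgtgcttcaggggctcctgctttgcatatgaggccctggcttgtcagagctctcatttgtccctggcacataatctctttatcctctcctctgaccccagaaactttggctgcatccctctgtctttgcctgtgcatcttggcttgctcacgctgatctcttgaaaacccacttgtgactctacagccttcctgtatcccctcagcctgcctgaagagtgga
The Ablim1 window held 0 matches and the Aff3 window an octamer and an AP-1 match. The chromosome 2 window, with a GC content of 73.3%, held 4 matches. A match is a description of the letters and no evidence of binding.

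K and C GC B cells differed at 516 of the 65483 peaks (0.788%) by edgeR's quasi-likelihood test at an adjusted p under 0.01. Of these, 185 (0.283% of all peaks) were more accessible in K and 331 (0.505%) less accessible in K. The median difference was 0.53 on the log2 scale for the peaks higher in K and -0.70 for those lower in K, and 31 and 58 peaks changed by more than 2-fold. Without adjustment, 11700 peaks had a p under 0.05. The K and C mice did not overlap at 171 of the 185 and 327 of the 331 called peaks, against 10.9% of all peaks. With the Y gene signal as a covariate, 182 peaks were higher and 298 lower in K, and 447 of the 516 calls were kept. A covariate of the signal summed over these 11 and 14 other peaks of the Y chromosome left 26 calls, 25 of them among the 516, and 17 of the 30 called peaks named below were no longer called. In that sum every C library lay above every K library, so that this covariate and the genotype cannot be told apart. The count moved with single mice, from 102 without C mouse 4 and 109 without K mouse 1 to 487 without K mouse 3. Called in all 8 of these fits were 82 of the peaks, 25 higher and 57 lower in K. DESeq2 called 1164 peaks, 478 of them among the 516.

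Peaks higher in K and peaks lower in K lay in different places. A transcription start site (TSS) of a protein-coding gene lay within 5 kb of 102 of the 185 higher peaks (55.1%, exact binomial 95% interval 47.7 to 62.4, counting error only), of 51 of the 331 lower peaks (15.4%, 11.7 to 19.8), and of 31.4% of all peaks. With the Y gene covariate the shares were 52.7% and 14.8% of the higher and lower peaks. When 1 K or C mouse was left out, the share of higher peaks ran from 31.4% without K mouse 1 to 65.2% without K mouse 3. It was 37.9% without K mouse 2. Within 1 kb, the shares in the main fit were 50.3% of higher, 5.44% of lower and 21.3% of all peaks. Of the lower peaks, 212 (64.0%) were centred in introns, compared with 65 (35.1%) of the higher peaks and 46.9% of all peaks. The median GC content was 56.8% for higher peaks, 47.03% for lower peaks and 48.2% for all peaks. When all peaks were cut into 5 classes of GC content, the richest class (over 54.7%) held 100 of the 185 higher peaks and 26 of the 331 lower peaks. Over all peaks, called or not, the median log2 difference ran from -0.09 in the class poorest in GC to 0.08 in the richest. When counts were centred within 20 bins of GC content, 119 peaks were higher and 256 lower in K, with a start site within 5 kb of 30.3% and 22.7% of them. The surplus of promoters among the higher peaks was thus not present after that centring, and 323 of the 516 calls were kept. It was also absent, at 31.7%, among the 82 higher peaks with a change above 1.5-fold. Of the 219 lower peaks above that fold, 12.3% had a start site within 5 kb, so higher and lower peaks still differed.

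**Figure D1:**
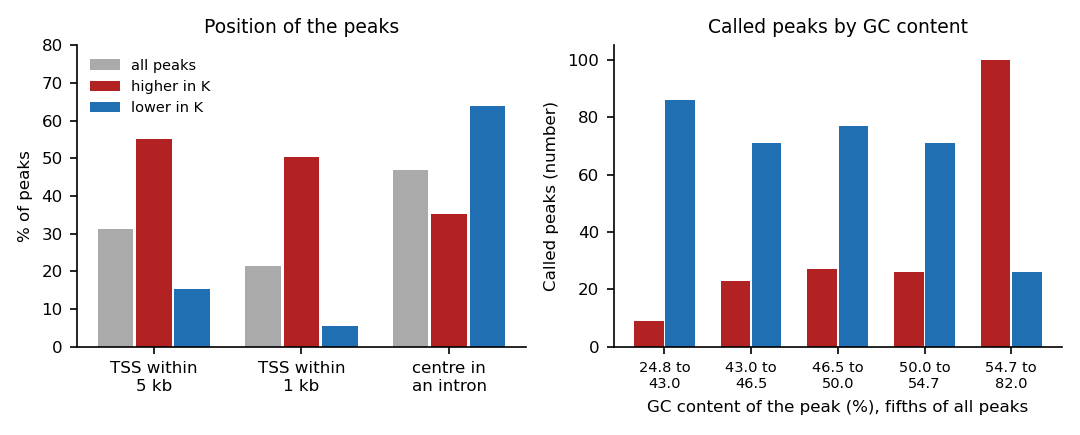
Left, the share of all 65483 peaks (grey), of the 185 peaks higher in K (red) and of the 331 lower in K (blue) with a TSS within 5 kb or 1 kb, or centred in an intron. Right, the number of called peaks in 5 classes of all peaks by GC content, where the richest class holds 100 higher and 26 lower peaks.

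Both properties were then summed up as 1 value for each mouse. Peaks near a TSS (at most 5 kb) took up 65.0, 64.5, 62.6 and 62.5% of the K fragments and 62.7, 62.8, 61.2 and 61.7% of the C fragments. K mice 3 and 4 lay within the range of C. The mean was 63.7% ± 1.30 in K and 62.1% ± 0.771 in C (SD, n = 4 each), a difference of 1.56 percentage points (exact two-sided permutation p = 0.171, adjusted over 2 tests p = 0.171). The mean GC content of the peaks, weighted by the counts of each mouse, was 53.4, 53.2, 53.0 and 53.0% in K. It was 52.9, 53.0, 52.8 and 52.7% in C, with every K mouse above every C mouse. Its mean was 53.2% ± 0.172 (SD, n = 4) and 52.9% ± 0.110 (SD, n = 4), a difference of 0.307 percentage points (exact two-sided permutation p = 0.0286, adjusted p = 0.0571). With 4 mice per group no smaller p could be reached. Among peaks over 5 kb from a TSS the GC difference was 0.139 percentage points (exact permutation p = 0.171). This value uses the reference sequence of each peak, and the GC content of the fragments themselves was not measured. Its relation to the promoter result was not tested beyond these values.

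**Figure D2:**
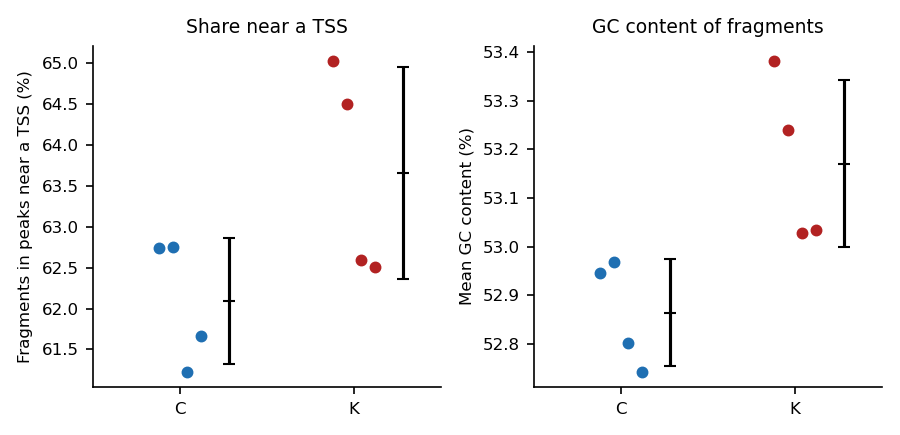
Fragments in peaks near a TSS, at most 5 kb away, as % of all fragments in peaks (left) and mean GC content of peaks weighted by counts (right, %) in 4 C and 4 K mice, with mean ± SD beside the points (axes do not start at 0). K mice span 62.5 to 65.0% and C mice 61.2 to 62.8% near a TSS, and the GC values do not overlap.

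The 8 peaks higher in K with the lowest adjusted p included sites at and near genes of varied function. In an intron of Sipa1l3, a regulator of Rap GTPases, the peak at chromosome 7, 29338240 to 29339410, measured 10.2, 9.17, 10.4 and 8.63 CPM in K and 5.29, 4.38, 3.69 and 4.73 in C. K mice stood at 9.59 ± 0.827 CPM (SD, n = 4) against 4.52 ± 0.668 (SD, n = 4), a log2 difference of 1.08 ± 0.11 (SE, adjusted p = 8.19e-06). Every K mouse lay above every C mouse, the 5 CK mice lay with K at 8.84 ± 0.521 (SD) and the 4 WT mice with C at 4.94 ± 0.348 (SD). The peak over the start site of Sox12, a SoxC transcription factor gene (chromosome 2, 152396187 to 152399214), measured 77.8, 79.4, 72.6 and 75.3 CPM in K and 55.3, 56.3, 51.5 and 54.8 in C. Its log2 difference was 0.49 ± 0.06 (SE, adjusted p = 7.31e-05), and all K mice exceeded all C mice. Steap3, an iron-reducing enzyme, had a start-site peak (chromosome 1, 120264679 to 120265893) at 34.8, 28.9, 31.5 and 30.9 CPM in K and 22.04, 18.7, 20.6 and 19.5 in C. The log2 difference was 0.64 ± 0.08 (SE, adjusted p = 8.49e-05), again without overlap, and CK mice were at 31.0 ± 3.36 (SD, n = 5).

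Ret, a receptor tyrosine kinase gene, had 3 called peaks, of which the lowest adjusted p fell in an intron (chromosome 6, 118179005 to 118180197). That peak measured 34.8, 34.8, 30.1 and 32.8 CPM in K and 22.9, 24.3, 22.8 and 23.5 in C (log2 difference 0.50 ± 0.06, SE, adjusted p = 9.56e-05). The other 4 peaks of this group were intergenic. The peak at chromosome 2, 30711494 to 30712925, lay 88782 bp from the nearest coding start site and was at 57.8 ± 2.77 CPM in K and 39.9 ± 3.14 in C (SD, n = 4 each). The peak at chromosome 12, 16031779 to 16033131, with no coding start site within 100 kb, was at 5.20 ± 1.04 and 2.06 ± 0.431 CPM. That at chromosome 2, 173464805 to 173466663, was at 18.4 ± 1.16 and 10.7 ± 1.45. At each of these 3, K and C mice did not overlap and the CK mean lay above the WT mean. At the other, near Cpeb4 and described with its run, CK was at 15.2 ± 0.798 (SD, n = 5) and WT at 30.4 ± 1.67 (SD, n = 4).

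The 8 peaks lower in K with the lowest adjusted p lay mostly in introns. The most extreme was in Ablim1, which encodes an actin-binding LIM protein (chromosome 19, 57112611 to 57113403). It measured 0.212, 0, 0.314 and 0.323 CPM in K and 11.4, 11.6, 8.59 and 9.03 in C, a log2 difference of -5.49 ± 0.41 (SE, adjusted p = 3.81e-08). The K libraries held 17 fragments there in all. WT mice were at 6.60 ± 1.61 CPM (SD, n = 4) and CK mice, which carry the same Kmt2d fl/+ allele, at 8.97 ± 3.67 (SD, n = 5), so this peak was near 0 in K alone among the 4 genotypes. Another peak of the same gene (chromosome 19, 57103843 to 57106071), named after its values were seen, was higher in K, at 14.6, 20.05, 13.7 and 10.8 CPM against 5.14, 4.47, 4.15 and 4.94 in C (log2 difference 1.66 ± 0.34, SE, adjusted p = 0.00875).

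Aff3, an AFF family gene active in lymphoid cells, had 2 intronic peaks in the group. At chromosome 1, 38267917 to 38269029, K measured 11.2, 10.7, 12.9 and 10.8 CPM and C 22.2, 20.6, 22.2 and 22.6 (log2 difference -0.94 ± 0.08, SE, adjusted p = 1.02e-07). WT mice at 14.4 ± 0.686 (SD, n = 4) and CK mice at 13.02 ± 0.331 (SD, n = 5) lay nearer to K, so C stood apart from the other genotypes. At chromosome 1, 38271451 to 38272408, C was at 4.40 ± 0.946 CPM against 1.26 ± 0.351 in K and 2.19 ± 0.298 in WT (SD, n = 4 each). The same order held in Lgr6, a receptor for R-spondins (chromosome 1, 135053339 to 135053954), with 6.95, 6.74, 7.43 and 7.80 CPM in K, 14.6, 14.5, 13.3 and 13.1 in C, and 9.89 ± 1.25 (SD, n = 4) in WT. Tas2r138, a bitter taste receptor gene (chromosome 6, 40613294 to 40614151), was at 1.39 ± 0.430 CPM in K, 2.89 ± 0.171 in WT and 4.18 ± 0.212 in C (SD, n = 4 each).

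At the other 3 of these 8 peaks, C mice lay with WT and K mice with CK. Near Grik3, a kainate receptor subunit gene (chromosome 4, 125481014 to 125482052), K measured 2.44, 2.66, 1.94 and 1.89 CPM and C 6.56, 5.41, 6.17 and 7.59. The log2 difference was -1.53 ± 0.14 (SE, adjusted p = 5.43e-07), with the 4 WT mice at 6.93 ± 0.369 (SD) and the 5 CK mice at 2.61 ± 0.285 (SD). The intronic peak of Manba, a lysosomal mannosidase gene (chromosome 3, 135516624 to 135517453), was at 2.82 ± 0.152 CPM in K and 6.06 ± 0.849 in C (SD, n = 4 each). That of Sipa1l1, a paralog of Sipa1l3 (chromosome 12, 82393260 to 82395737), was at 2.94 ± 0.375 and 6.32 ± 0.410. The paralogs thus had called peaks of opposite direction.

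The peaks with the largest changes at 1 CPM or more were often carried by some mice only. At an intergenic peak 54200 bp from the start site of Pgm2, a phosphoglucomutase gene (chromosome 5, 64037989 to 64038750), K measured 5.73, 3.91, 5.50 and 5.81 CPM, while the C libraries held 3, 2, 0 and 1 fragments, at most 0.142 CPM (log2 difference 6.05 ± 0.99, SE, adjusted p = 0.00163). WT mice were at 5.69, 3.08, 6.37 and 3.05 CPM (4.55 ± 1.74, SD, n = 4). CK mice split, with 3 at 0.0473 to 0.197 CPM and 2 at 4.43 and 5.36. A neighbouring peak nearest to Rell1, a TNF receptor-related gene (64029339 to 64031039), was at 13.8 ± 3.69 CPM in K and 1.02 ± 0.164 in C (SD, n = 4 each), with the same 2 CK mice high. Without C mouse 4 the adjusted p was 0.0110 at the Pgm2 peak and 0.0139 at the Rell1 peak, and the Rell1 call was also lost without C mouse 2 (0.0101). In an intron of Bmp1, a procollagen proteinase gene (chromosome 14, 70477187 to 70477931), K was at 3.02, 3.17, 0.890 and 4.89 CPM and C at 0.614, 0.316, 0.556 and 0.531. Over the start site of Xkr6, an XK-related gene (chromosome 14, 63605936 to 63608759), K mice 1 and 2 were at 26.8 and 22.3 CPM and K mice 3 and 4 at 3.93 and 3.88, next to 3.49, 3.11, 2.68 and 3.50 in C. Its adjusted p of 0.00527 rose to between 0.0160 and 0.0378 when any of 6 mice was left out.

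Among the largest decreases, a peak in a UTR of Il9r, the interleukin 9 receptor gene, set C apart from WT (chromosome 11, 32189791 to 32190877). It measured 0.425, 0.566, 3.72 and 0.323 CPM in K, 5.29, 4.47, 7.23 and 6.53 in C, and 0.234 ± 0.128 (SD, n = 4) in WT (log2 difference -2.23 ± 0.39, SE, adjusted p = 0.00316). K mouse 3 lay near C and the other K mice near WT, and CK mice were at 4.47 ± 1.17 (SD, n = 5). The call was lost without any of 5 mice, with an adjusted p up to 0.0173. Cobl, an actin nucleator gene (chromosome 11, 12436979 to 12437854), had an intronic peak at 0.684 ± 0.462 CPM in K and 2.69 ± 0.857 in C (SD, n = 4 each, adjusted p = 0.00329), and its call was lost without any of 3 mice (adjusted p up to 0.0195). In Hydin, a gene of ciliary axonemes (chromosome 8, 110406180 to 110407807), K was at 1.13 ± 0.269 and C at 3.82 ± 0.484. The intergenic peak at chromosome 5, 16973211 to 16974527, was at 0.925 ± 0.453 and 3.11 ± 0.676.

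**Figure D3:**
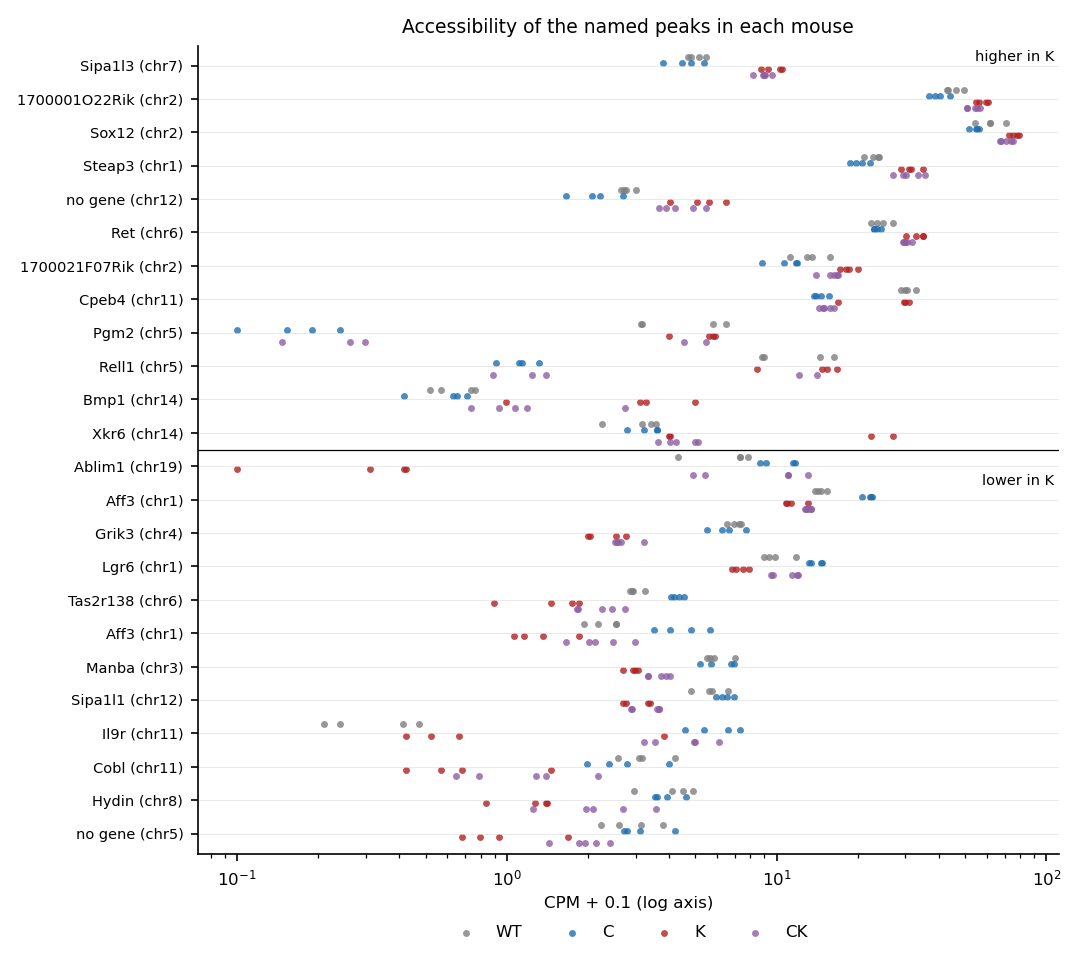
CPM + 0.1 (log axis) of the 12 named peaks higher in K (top) and the 12 lower in K (bottom), with 1 point per mouse for WT (grey), C (blue), K (red) and CK (purple). K and C points do not overlap at any of the 24 peaks, by the rule that chose them. K mice split at Cpeb4, Bmp1, Xkr6 and Il9r. At Pgm2 and Rell1 CK mice split, and WT mice also spread over higher and lower values.

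Placed against WT, the called peaks differed mainly by the level of K. The K and C contrasts below share the same 4 WT mice. Relative to WT, 1.48% of all peaks were called in K, 0.16% in C and 6.84% in CK. For the 185 peaks higher in K, the median log2 difference from WT was 0.36 in K and -0.12 in C, and 69 were called in K and 17 in C. For the 331 lower peaks the medians were -0.57 in K and 0.11 in C, and 163 were called in K and 7 in C. K lay farther from WT than C did at 148 of the 185 and 298 of the 331 peaks, against 60.6% of all peaks.

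CK and WT mice take no part in the K minus C difference itself, so they gave a look at the same peaks in other animals. This look was not fully separate, as these mice entered the estimate of spread behind the calls. CK differed from WT with the sign of the K minus C difference at 155 of the 185 higher peaks (83.8%) and 303 of the 331 lower peaks (91.5%), against 63.5% of all peaks. Of the called peaks, 46.5% and 45.6% were also called in CK against WT. Their direction was that of K minus C at 73 of 86 higher and 146 of 151 lower peaks, and at 3729 of the 4478 peaks called in CK over all peaks (83.3%), so the share of the higher peaks (84.9%) was near that of all peaks. The median log2 difference of CK from WT was 0.24 and -0.39. At the 37 higher peaks where C was the farther from WT, the CK median was instead -0.36. Of the 37, 26 lay on chromosomes 1, 5 and 11, which hold 20.6% of all peaks. These chromosomes were not set by a rule beforehand. The 26 also include neighbours that are not independent, 5 between Bod1 and Cpeb4 and 4 near Rell1 and Pgm2.

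**Figure D4:**
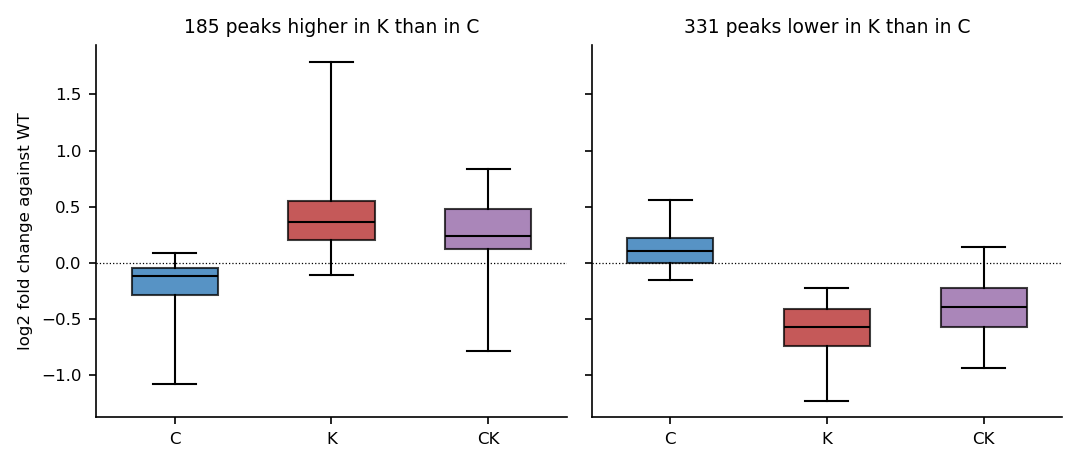
Log2 fold change against WT in C, K and CK for the 185 peaks higher in K (left) and the 331 lower in K (right). Boxes span the quartiles with the median as a line, and whiskers run from the 5th to the 95th percentile over peaks. Medians are -0.12, 0.36 and 0.24 on the left and 0.11, -0.57 and -0.39 on the right.

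Called peaks were in part clustered. Runs of at least 3 called peaks of the same direction, each within 100 kb of the next, were collected after the calls were seen. There were 18 such runs with 65 peaks, 7 higher and 11 lower in K, and their summed CPM did not overlap between K and C in any run. The runs were built only from peaks already called between K and C in the same direction. The lack of overlap in their sums was thus largely set by that choice and is no separate evidence of a difference. With these runs left out, 120 peaks were higher and 229 lower. The longest lay in Adap1, an ArfGAP gene, and neighbours (chromosome 5, 139282329 to 139368299), where 6 peaks summed to 83.7 ± 5.25 CPM in K and 114 ± 7.26 in C (SD, n = 4 each). CK mice were at 87.0 ± 3.71 (SD, n = 5) and WT at 113 ± 1.75 (SD, n = 4). In and near Smad3, which encodes a transducer of TGF-beta signals (chromosome 9, 63731215 to 63787356), 4 peaks summed to 36.0, 34.6, 36.4 and 33.0 CPM in K and 47.4, 49.0, 56.7 and 59.3 in C. The 4 WT mice gave 54.03 ± 2.80 (SD) and the 5 CK mice 38.4 ± 4.55 (SD), so that CK lay with K.

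The runs did not share 1 order of genotypes. At Lgr6 and Ube2t, 4 peaks summed to 24.4 ± 1.69 CPM in K, 42.75 ± 2.56 in C, 31.3 ± 3.775 in WT (SD, n = 4 each) and 34.5 ± 3.15 in CK (SD, n = 5), with CK nearer to WT than to K. Lcp2, which encodes the adaptor SLP-76, and its neighbourhood had 3 peaks that summed to 28.02 ± 1.64 CPM in K, 43.3 ± 2.04 in C, 43.1 ± 2.43 in WT (SD, n = 4 each) and 28.9 ± 5.10 in CK (SD, n = 5). Dnmt3a, a DNA methyltransferase gene, and its upstream region had 3 peaks at 44.9 ± 1.08 CPM in K and 64.8 ± 5.20 in C (SD, n = 4 each). Gna12, a G protein alpha subunit gene, had 3 at 10.2 ± 1.25 and 18.4 ± 1.64. Of single peaks chosen after their values were seen, an intronic site of Itpkb, an inositol trisphosphate kinase gene, was at 4.33 ± 0.780 CPM in K and 8.45 ± 1.01 in C. An intronic site of Stim2, a calcium sensor of the endoplasmic reticulum, was at 8.35 ± 0.347 and 12.1 ± 0.217. One of Bmf, a pro-apoptotic BCL2 family gene, was at 14.5 ± 0.531 and 20.1 ± 1.87 (SD, n = 4 each throughout).

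Runs higher in K were of more than one kind. At Sox12 and Zcchc3 (chromosome 2, 152396187 to 152415309), 3 peaks summed to 109 ± 1.74 CPM in K, 78.6 ± 3.52 in C and 99.5 ± 4.02 in CK. At Ret, 3 peaks summed to 64.0 ± 5.74 CPM in K, 43.4 ± 1.74 in C and 57.02 ± 2.52 in CK. In both, K and CK lay above C. Between Bod1 and Cpeb4, a regulator of mRNA polyadenylation (chromosome 11, 31732414 to 31826048), 5 peaks instead summed to 64.6, 66.9, 36.2 and 73.4 CPM in K and 33.1, 31.6, 32.8 and 34.5 in C, with WT at 69.9 ± 2.60 and CK at 35.8 ± 0.989. There K mouse 3 lay with C and CK, and the other K mice with WT. The single peak of this run with the lowest adjusted p (31814396 to 31816010) measured 29.7, 29.7, 16.8 and 30.7 CPM in K and 13.9, 13.6, 15.5 and 14.5 in C (log2 difference 0.89 ± 0.12, SE, adjusted p = 0.000209). At Mtmr9 and Xkr6 (chromosome 14, 63561475 to 63608759), 3 peaks summed to 43.9 and 38.7 CPM in K mice 1 and 2 and to 4.14 and 4.24 in K mice 3 and 4, against 2.98 to 3.77 in C. At both loci, mice of the K genotype thus fell on either side. Sequence differences between the mice at these loci were not tested.

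**Figure D5:**
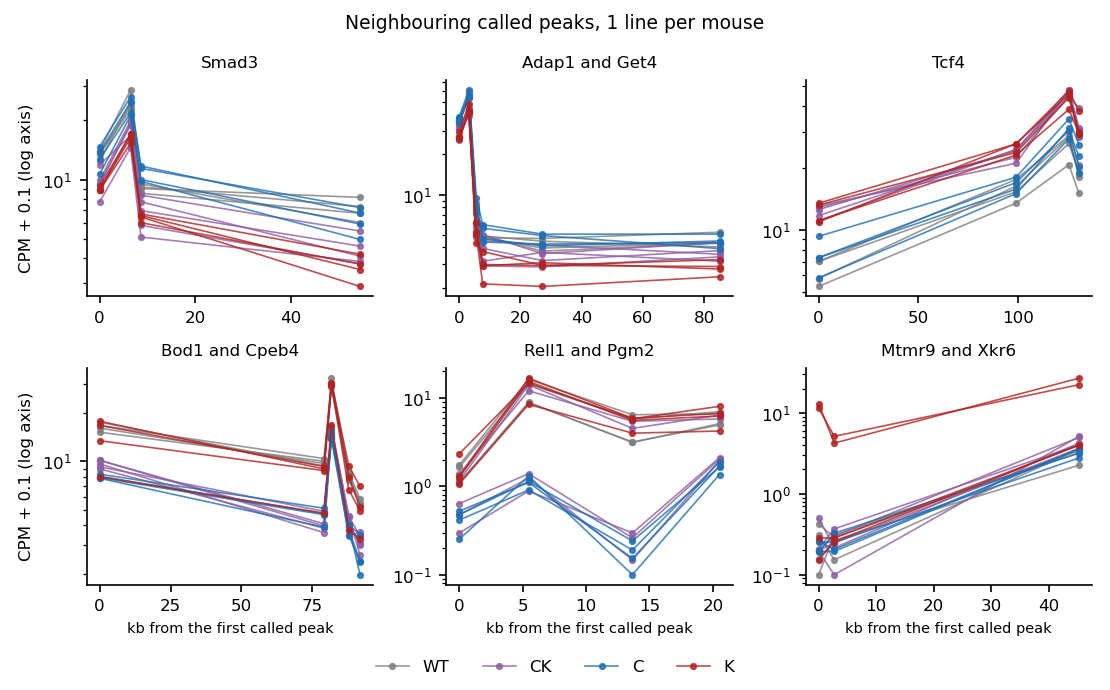
CPM + 0.1 (log axis) at neighbouring called peaks of 6 runs, by distance in kb from the first called peak, with 1 line per mouse for WT (grey), CK (purple), C (blue) and K (red). K mice lie below all WT and C mice at each peak of Smad3 and of Adap1 and Get4, where some CK mice reach WT or C values, and K and CK mice lie above WT and C at Tcf4, while K mouse 3 joins C at Bod1 and Cpeb4, and 2 K mice stand alone at Mtmr9 and Xkr6.

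Among GC B-cell transcription factors, 7 of 516 peaks near the 24 listed genes were higher and 1 lower in K (1.55%, against 0.788% of all peaks), with a median log2 difference of 0.00 over the list. Tcf4, which encodes the E protein E2-2, held 4 of them. Its peak at chromosome 18, 69471829 to 69473821, measured 23.7, 23.05, 26.2 and 26.1 CPM in K and 16.9, 15.7, 17.9 and 14.9 in C (log2 difference 0.60 ± 0.08, SE, adjusted p = 0.000311). All K mice lay above all C mice. The peak over an internal start site of Tcf4 (69498625 to 69500013) was at 43.9 ± 3.82 CPM in K and 30.9 ± 2.85 in C, and that at 69372521 to 69374892 at 12.1 ± 1.35 and 7.34 ± 1.42 (SD, n = 4 each). The first of these lost its call without C mouse 4 (adjusted p = 0.0114) and the other without any of 3 mice (up to 0.0169). The 4 Tcf4 peaks together gave 112 ± 9.35 CPM in K, 76.5 ± 8.57 in C, 65.8 ± 8.27 in WT (SD, n = 4 each) and 113 ± 3.61 in CK (SD, n = 5). The other 3 were intronic peaks of Foxp1, a forkhead repressor gene, with log2 differences of 0.45, 0.45 and 0.85. Ebf1, a factor of B-lineage identity, had the peak lower in K (chromosome 11, 44695192 to 44697144), at 7.22, 8.27, 9.47 and 8.26 CPM in K and 11.2, 10.5, 13.9 and 11.9 in C. There WT was at 8.15 ± 0.378, next to K, and the adjusted p of 0.00764 was over 0.01 without any of 6 mice (up to 0.0397). The promoter of Bcl6, the master repressor of the GC, was at 33.97 ± 1.81 CPM in K and 27.3 ± 0.537 in C (SD, n = 4 each), a log2 difference of 0.32 ± 0.07 (SE) that missed the threshold (adjusted p = 0.0183).

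The other lists held few calls or none. For the immune synapse and T-cell help, 2 of 148 peaks were lower in K (1.35%, against 0.505% of all peaks), while 16.9% had an unadjusted p under 0.05, against 17.9% of all peaks. The called peaks were the Il9r peak and an intronic peak of Il21r, the interleukin 21 receptor gene (chromosome 7, 125630002 to 125630774). At the Il9r peak K mouse 3 lay near C, as it did at the neighbouring Cpeb4 run. The Il21r peak measured 13.9, 13.7, 15.4 and 15.6 CPM in K and 18.5, 18.6, 20.2 and 21.5 in C (log2 difference -0.42 ± 0.09, SE, adjusted p = 0.00764), and the call was lost without any of the 8 mice (adjusted p up to 0.0406).

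By edgeR, 0 of 59 peaks of MHC class II genes and 0 of 196 of plasma and memory fate genes were called. So were 0 of 167 of dark zone, mutation and confinement genes and 0 of 123 of KAT3, KMT2 and opposing cofactor genes. The share called over all peaks was 0.788%, so lists of this size can hold 0 calls without differing from other peaks. At an unadjusted p under 0.05 these 4 lists held 7, 36, 21 and 25 peaks, or 11.9, 18.4, 12.6 and 20.3%, against 17.9% of all peaks. The list medians lay between -0.06 and -0.02 on the log2 scale. Start-site peaks of H2-Ab1, a class II chain, were at 152 ± 8.21 CPM in K and 154 ± 4.68 in C. Ciita, the class II transactivator, was at 65.6 ± 2.56 and 62.0 ± 2.08. Prdm1, the plasma cell regulator, was at 43.8 ± 4.34 and 45.2 ± 1.10 (SD, n = 4 each throughout). A difference at these promoters was not detected with 4 mice per genotype. Other start-site peaks of the 4 lists lay nearer the threshold by edgeR. Higher in K were Rfxap (adjusted p = 0.0264), Polh (0.0303), Bhlhe40 (0.0321) and Arid1a (0.0480). Gpr183 was lower in K (0.0732).

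Motif letters were counted in the central 300 bases of each peak, on either strand. SP and KLF letters (GGGGCGGGG) were present in 10.3% of higher, 1.21% of lower and 4.15% of all peaks. Octamer letters (ATGCAAAT) were in 0.541%, 6.65% and 4.17%, PU.1 and SPIB letters (GAGGAAGT) in 2.16%, 7.55% and 5.83%, and RUNX letters (TGTGGTT) in 4.32%, 12.1% and 8.46%. Restricted to peaks over 5 kb from a TSS (83 higher, 280 lower and 44934 in all), PU.1 and SPIB letters were in 1 of 83 and 20 of 280, against 6.65%, and octamer letters in 1 and 21, against 4.94%. RUNX letters were in 4 and 34, against 9.74%, and SP and KLF letters in only 2 and 3, against 1.74%. AP-1 letters (TGANTCA) were in 12 and 34, against 10.3%. These shares move with GC content, which had a median of 48.2% in the higher, 46.4% in the lower and 46.5% in all distal peaks.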

How the data were processed

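GC B cells of 17 mice were compared over a consensus set of ATAC-seq peaks. The deposited values are raw counts of fragments per peak, which the authors made with featureCounts 2.0.1 after alignment to mm10, per the labels and the study's methods. No column of per-sample values was left unused, and CPM were computed here from TMM-scaled library sizes. Differences were tested with edgeR 4.0.16 (quasi-likelihood test) in R 4.3.3 on all 17 libraries, with 1 coefficient per genotype and Benjamini-Hochberg adjustment over all 65483 peaks at 0.01. A filter on a summed count of 10 removed 0 peaks. Each edgeR p-value sets the K minus C difference against the spread between mice, with 1 library each. That spread was estimated over all 4 genotypes. DESeq2 1.42.0, other scalings, GC bins, covariates and left-out mice were alternatives, of which the Y gene covariate, left-out WT and CK mice and left-out runs were chosen after seeing the data. The procedure was tested on simulated data. Single values per mouse were compared with exact permutation tests.

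Peaks were assigned to the nearest coding start site within 100 kb of the GENCODE annotation. Named peaks were the 8 per direction with the lowest adjusted p and the 4 with the largest change at 1 CPM or more. These were autosomal, without overlap between K and C mice and at most 2 per direction in 5 Mb. The peaks over Crebbp and Kmt2d and up to 3 called peaks per gene list and direction were added. The comparison and lists were chosen with earlier results of these data known. Some genes and the list results that rest on them are not reported here.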

Additional observations from a re-analysis of the deposited data

Results flagged for a closer look

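In 3 of 64 groups of mice at named peaks (4.69%), 1 mouse stood apart from the other 3 by Dixon's test, which chance gives in about 1 of 20 groups. At the peak near Cpeb4, K mouse 3 measured 16.8 CPM and the other K mice 29.7 to 30.7. At the Il9r peak the same mouse measured 3.72 CPM and the other K mice 0.323 to 0.566. The Il9r peak (chromosome 11, 32189791 to 32190877) lies close to the Cpeb4 peak (31814396 to 31816010). In both, K mouse 3 lay with C and CK and the other K mice with WT. These groups are therefore not independent. At the peak near Pgm2, K mouse 2 measured 3.91 CPM and the others 5.50 to 5.81. WT mice were spread in the same way there, at 5.69, 3.08, 6.37 and 3.05 CPM.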

How the results depend on the processing

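Each of the 516 calls kept its sign under every setting that tested its peak. Of 1005 refits of the 30 called named peaks, 938 stayed under the threshold, 67 did not and 0 reversed. All settings refit the same counts, so kept signs are no independent support for the calls. Counts of calls are given as total, higher and lower, and promoter shares are those within 5 kb of a TSS. DESeq2 gave 1164, 522 and 642 (promoter share of higher peaks 72.0%), and an adjusted p under 0.05 gave 2371, 1106 and 1265 (71.1%). A fold above 1.5 gave 301, 82 and 219 (31.7%, and 12.3% of lower peaks). GC bins gave 119 higher peaks (promoter shares 30.3 and 22.7%), and with the Y gene covariate added the shares were 31.8 and 22.4%. The signal summed over all Y peaks as a covariate left 26, 6 and 20 calls. That sum was higher in every C than in every K library, and 17 of the 30 called named peaks passed the threshold no longer. The fit of only the 8 K and C libraries kept 337 of the 516 calls, with a promoter share of 64.4%. Leaving out runs gave 120 higher peaks (62.5%). A 1 kb window gave 5.44% for lower peaks. Leaving out 1 mouse gave 102 to 606 calls, 33 to 261 higher and 69 to 392 lower, with promoter shares of 31.4 to 65.2% and 11.3 to 19.6%. The GC difference per mouse was 0.139 over distal peaks and 0.236 to 0.354 without 1 mouse, where no p under 0.0571 could be reached. Whether the replicate numbers pair the mice was not settled. Of 4 same-numbered pairs, 1 had a correlation of deviations over 0.1 (range -0.09 to 0.21). That pair, K mouse 1 with C mouse 1, had the highest correlation of any K and C mice. Of 4 K mice, 1 correlated best with its own number. The replicate block kept all 516 calls and gave 1411, 683 and 728 calls (73.8%). The replicate block with GC bins gave 779 and 290 higher (34.8 and 22.3%). The causes of these shifts were not tested. Counting depth limits peaks under about 1 CPM.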
